A study of Mus musculus with 12 samples.

Results

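The interaction between MLN4924 and hypoxia was measured in mouse GC-2 cells as the log2 response to hypoxia with the inhibitor minus the log2 response to hypoxia without it. All 12 of the 12 libraries entered the comparison, and 12311 of the 24770 gene symbols in the deposited table were tested, those with at least 1 FPKM (fragments scaled to transcript length and to the mapped total of a library) in at least 3 libraries. Cells received DMSO, the solvent, or MLN4924 at 1 µM and were then kept for 24 h in normoxia or in hypoxia at 1% O2. The 4 groups were thus DMSO normoxia, DMSO hypoxia, MLN4924 normoxia and MLN4924 hypoxia, with 3 libraries each, which the series text calls biological replicates. All groups shared the GC-2 line, the genotype label WT and the same medium with serum. The labels call the line type B spermatogonia, and their cell type entry counts upward from GC-2 to GC-13 from sample to sample, while every title names GC-2.

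GC-2 is an established line, immortalised with viral large T antigen and a mutant p53, and 1 line gives no measure of how other germ cells respond. Germ cell markers were scarce in it. Of 18 markers of spermatogonia, 9 were in the deposited table and 3 passed the filter (Uchl1, at a mean of 14.2 FPKM, Gfra1 and Ret). The defining markers Kit, Sohlh1 and Nanos3 had mean levels of 0.00667, 0.00417 and 0.0325 FPKM. Of 17 markers of spermatocytes and spermatids, 5 were in the table and 0 passed the filter. Markers with no row in the table have no level here. Of 16 markers of Sertoli cells 13 were in the table and 7 passed the filter. Kitl, the ligand of the receptor KIT, was at 41.3 FPKM and Fshr, the receptor of follicle-stimulating hormone, at 0.005. Of 14 markers of fibroblasts and peritubular cells 12 were in the table and 8 passed the filter. The collagen gene Col1a1 was at 533 FPKM and Vim, an intermediate filament gene, at 828, while Dcn, Tcf21, Thy1 and Myh11 had 0.399, 0.0817, 0.0317 and 0.00833 FPKM.

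MLN4924 blocks the enzyme that activates NEDD8, a small protein related to ubiquitin. Cullin-RING ligases work only when their cullin carries NEDD8, so the inhibitor stabilises many of their substrates, among them the replication licensing factor CDT1, the cell cycle inhibitor p21, the antioxidant factor NRF2 and the hypoxia factor HIF-1α. HIF-1α is also stabilised by low oxygen, because its hydroxylation, which marks it for the VHL ligase built on a cullin, needs oxygen. The 2 treatments therefore meet at a shared class of enzymes, and a design that crosses them shows where the response to one depends on the presence of the other.

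A gene is called higher than additive where its log2 level with both treatments lay above the sum of the 2 separate log2 changes, and lower than additive where it lay below. On the log2 scale this means that fold changes did not multiply. Values were compared as log2(FPKM + 1) in one limma fit of all 4 groups, and a call needs a Benjamini-Hochberg adjusted p under 0.05 over the 12311 genes. "Rose" and "fell" are used only for calls of this kind. The added 1 FPKM makes fold changes of low genes smaller than their ratio of FPKM.

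One library stood apart from the rest. DMSO hypoxia replicate 1 had a total of 633597 FPKM, against 530452 to 557779 in the other libraries, and a mean Spearman correlation of 0.926 with its own group, against at least 0.9765 in the other groups. Its deviation from its group fell with transcript length (rho -0.477 across genes). Interaction calls were therefore counted with and without it, and a count for which no fit is named is from all 12 libraries.

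In all, 232 genes were called (1.88% of those tested), of which 118 were higher than additive (0.958%) and 114 lower (0.926%). The departure reached 2-fold in 33 of the higher and 23 of the lower genes. The median over all 12311 genes was 0.02, and the median standard error (SE) was 0.19. When DMSO hypoxia replicate 1 was left out, 678 genes were called (5.51%), 406 higher (3.3%) and 272 lower (2.21%), and the median SE was 0.15. Of the 232 genes, 231 were called in both fits, each with the same sign, and Sprr2g alone lost its call (adjusted p = 0.0491 with all libraries, 0.0522 without that library). Leaving out 1 library of any group other than DMSO hypoxia gave between 90 and 131 calls.

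Across the 12311 genes the 2 hypoxia responses, which share no library, had a Pearson r of 0.603, and 0.651 without DMSO hypoxia replicate 1. This value describes genes of the same cells and is not a test. Hypoxia changed 4093 genes with DMSO (33.2% of those tested) and 3473 with MLN4924 (28.2%), and 2351 were called in both, which is 57.4% of the former and 67.7% of the latter. Of these 2351, 38 moved in opposite directions. MLN4924 changed 2467 genes in normoxia (20%) and 3137 in hypoxia (25.5%). These are counts with all libraries, and the order within both pairs depended on DMSO hypoxia replicate 1. Without it hypoxia changed 4768 genes with DMSO and 5242 with MLN4924, and 87 of the 3506 called in both moved in opposite directions. In that fit MLN4924 changed 4215 genes in normoxia and 3993 in hypoxia.

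The 232 genes departed from additivity in several ways. For 77 the response to hypoxia was called with DMSO alone, and for 51 with MLN4924 alone. In 50 genes both responses were called in 1 direction and the one with MLN4924 was smaller, and in 17 it was larger. The remaining 37 responded in opposite directions, 22 of them rising with DMSO and falling with MLN4924. Over all tested genes these 5 kinds, in the order given, held 14.1%, 9.11%, 10.8%, 8.03% and 0.309%, and 57.6% had neither response called. In the fit that omits DMSO hypoxia replicate 1 the 5 kinds held 177, 155, 171, 88 and 87 called genes. Called in both fits with the same kind were 55, 43, 50, 17 and 33.

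**Figure D1:**
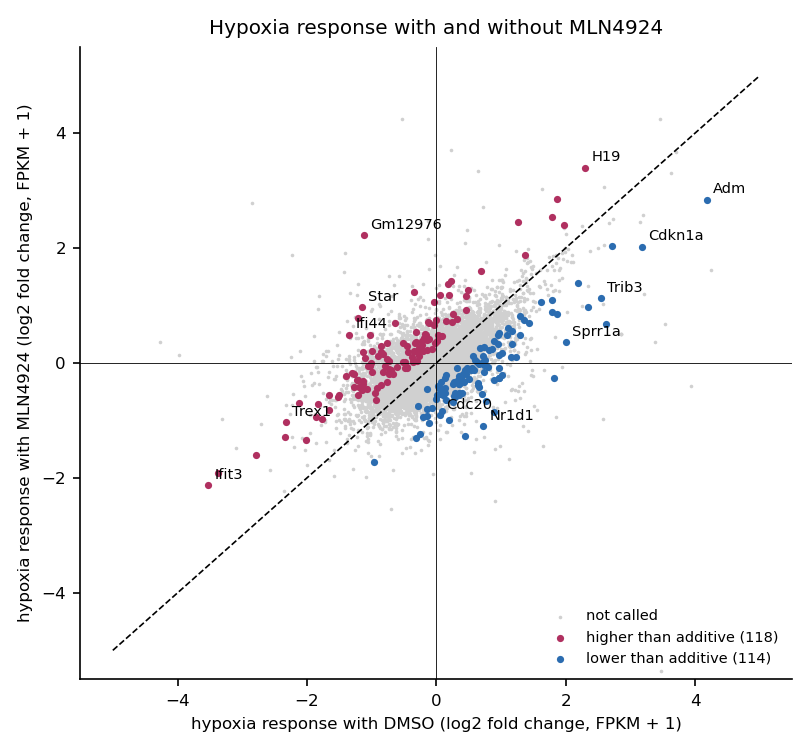
Log2 fold change with hypoxia under DMSO (x axis) and under MLN4924 (y axis) for each tested gene, with all 12 libraries. The dashed line marks equal responses; 118 genes called higher than additive (red) lie above it and 114 called lower (blue) lie below it, with Ifit3 and Adm at the ends of the band and Nr1d1 and Star off it.

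Genes of G2 phase and mitosis formed the largest block below additivity among the lists. Of 48 tested members 18 were lower than additive and 0 higher, against 0.926% lower over all genes, and the list median was -0.54. Without DMSO hypoxia replicate 1 there were 33 lower and 0 higher, against 2.21% lower over all genes, with a median of -0.50. Hypoxia raised 27 of the 48 and lowered 0 with DMSO, whereas with MLN4924 it raised 0 and lowered 14. Over all tested genes hypoxia raised 13.8% and lowered 19.4% with DMSO, and raised 11.7% and lowered 16.5% with MLN4924. Averaged over the list, levels relative to DMSO normoxia were 0.11, 0.25 and 0.33 log2 units in the DMSO hypoxia libraries, 0.23 to 0.25 in MLN4924 normoxia and -0.00 to 0.03 in MLN4924 hypoxia. Each treatment alone thus went with a higher list mean in every library, and both together with a mean near that of untreated cells. In bulk RNA, fewer cells in a cell cycle phase and less RNA per cell cannot be told apart. The number of called members ranged from 11 to 33 when single libraries were left out.

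Cdc20, an activator of the anaphase-promoting complex, stood at 102, 102 and 97.2 FPKM in DMSO normoxia, 108, 102 and 103 in DMSO hypoxia, 127, 129 and 128 in MLN4924 normoxia and 74.2, 66.6 and 62.97 in MLN4924 hypoxia. The last group lay below all 9 other libraries and the MLN4924 normoxia libraries lay above them. Its interaction was -0.97 ± 0.08 on the log2 scale (adjusted p = 0.00143), with 67.8 FPKM observed against 134 expected if the 2 fold changes had multiplied. Reads of Cdc20 may include those of Elovl1, which overlaps it on the opposite strand, since the strandedness of the libraries was not stated. Ccnb1, which encodes cyclin B1, the regulatory subunit of the mitotic kinase CDK1, had 82.2, 83.9 and 81.3 FPKM in DMSO normoxia and 95.1, 87.9 and 92.2 in DMSO hypoxia, and 103, 103 and 103 and 68.1, 67.5 and 61.4 with MLN4924. The 4 groups did not overlap, and the interaction was -0.79 ± 0.07 (adjusted p = 0.00146). Kif2c, a kinesin that takes microtubules apart at centromeres, fell with hypoxia in the presence of MLN4924 from 50.5, 50.7 and 49.2 to 34.01, 34.3 and 32.8 FPKM (log2 -0.56), while with DMSO it was 40.1 ± 1.47 and 43.3 ± 1.23 (SD, n = 3; adjusted p = 0.1104).

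The promoters of Cdc20 and Kif2c are shown for a motif known from genes of this phase, the cell cycle genes homology region. The letters TTTGAA were searched on both strands of the 300 bases that lead up to and just past gene starts in the RefSeq promoter table of build GRCm38.p6, and the match is in capitals. The Cdc20 window is chr4:118437294-118437593 (minus strand) and that of Kif2c is chr4:117178723-117179022 (minus strand).
Cdc20: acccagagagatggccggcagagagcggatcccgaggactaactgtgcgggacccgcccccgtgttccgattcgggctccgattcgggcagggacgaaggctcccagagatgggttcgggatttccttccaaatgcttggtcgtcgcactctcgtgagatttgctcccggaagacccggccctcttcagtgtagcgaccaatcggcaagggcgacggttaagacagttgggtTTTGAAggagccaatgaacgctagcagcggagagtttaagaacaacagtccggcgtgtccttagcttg
Kif2c: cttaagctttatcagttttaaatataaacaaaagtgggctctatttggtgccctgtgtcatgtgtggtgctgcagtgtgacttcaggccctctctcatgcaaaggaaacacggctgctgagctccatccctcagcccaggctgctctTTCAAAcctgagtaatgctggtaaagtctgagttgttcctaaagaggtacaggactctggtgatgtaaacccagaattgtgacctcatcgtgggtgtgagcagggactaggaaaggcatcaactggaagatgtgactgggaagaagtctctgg
Of 42 promoters of 39 tested list members, 32 (76.2%) held the letters. They were in 17.9% of all 32851 promoters in the table and in 12.2% of those of tested genes. They were in 14 of 17 promoters of called members and in 18 of 25 of members not called. CCAAT, which can share a base with TTTGAA where they adjoin, was in 32 of the 42 (76.2%) and in 37.4% of all. It was in 13 of 17 promoters of called members and in 19 of 25 of members not called. A match describes the letters and not a bound site. The part of either motif in the interaction was not tested.

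Among other members, which like those above include genes chosen after their values were seen, Aurka, a kinase of the spindle poles, had an interaction of -0.92 ± 0.10 (adjusted p = 0.00198). It went from 44.5 ± 2.24 to 57.4 ± 5.16 FPKM with hypoxia under DMSO and from 58.8 ± 0.772 to 39.6 ± 1.82 under MLN4924. Plk1, a further mitotic kinase, had -0.67 ± 0.08, Bub1 of the spindle checkpoint -0.87 ± 0.12, and Ube2c, the ubiquitin-conjugating enzyme that serves the anaphase-promoting complex, -0.89 ± 0.14. Cenpa, the centromeric histone, and Cks2, a small partner of cyclin-dependent kinases, had -1.02 ± 0.22 and -0.995 ± 0.20, but DMSO hypoxia replicate 1 lay well above its group at 91.6 and 334 FPKM and their calls ended in 13 and 12 of 25 alternative settings. Birc5, which encodes survivin, was short of the threshold with all libraries (-0.76 ± 0.18, adjusted p = 0.0695) and past it without DMSO hypoxia replicate 1 (-0.57, adjusted p = 0.00179). The whole kinesin family, assembled by symbol after values were seen, shares members with the G2 and mitosis list. In it 7 of 32 tested genes were lower than additive and 0 higher, against 0.926% lower over all genes. The family median was 0.03. Without DMSO hypoxia replicate 1 there were 10 lower and 0 higher, against 2.21% lower over all genes, with a median of -0.15.

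Genes of G1/S and DNA replication lay on the other side. Of 58 tested members 4 were higher than additive and 0 lower, against 0.958% higher over all genes, with a list median of 0.14 and 45 members above 0. With DMSO hypoxia replicate 1 omitted 11 were higher, against 3.3% over all genes, and the median was 0.17. By contrast, leaving out any 1 library of the MLN4924 groups, or DMSO normoxia replicate 1 or 2, left 0 calls. The list mean was 0.24 to 0.27 log2 units above DMSO normoxia in the MLN4924 hypoxia libraries and 0.02 to 0.08 in the libraries with a single treatment. Cdt1, which licenses replication origins and whose protein is a classic substrate of cullin-RING ligases, had 44.1, 45.3 and 40.5 FPKM in DMSO normoxia, 46.7, 44.4 and 47.7 in DMSO hypoxia, 37.8, 38.9 and 37.98 in MLN4924 normoxia and 51.2, 53.5 and 54.8 in MLN4924 hypoxia. The last 3 libraries were the highest of the 12, and the interaction was 0.37 ± 0.08 (adjusted p = 0.0449, lost in 14 of 25 alternative settings). The helicase subunits Mcm2 and Mcm4 had 0.49 ± 0.09 and 0.30 ± 0.06, and the DNA ligase gene Lig1 0.38 ± 0.08. These calls ended in 13 settings each.

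Cdkn1a, which encodes p21, was induced by both treatments and by less than the product when they were joined. It had 16.7, 18.3 and 15.9 FPKM in DMSO normoxia, 171, 155 and 157 in DMSO hypoxia, 33.1, 33.6 and 30.9 in MLN4924 normoxia and 138, 134 and 135 in MLN4924 hypoxia. All 4 groups were separate, and levels with both treatments lay below those with hypoxia alone. Hypoxia raised it 9.04-fold with DMSO and 4.07-fold with MLN4924, an interaction of -1.15 ± 0.09 (adjusted p = 0.000852). An expected level of 302 FPKM compared with 136 observed. In the list of p53 targets it was, with all libraries, the single member lower than additive of 32 tested, and Eda2r, a receptor of the tumour necrosis factor family, the single one higher (0.75 ± 0.15, adjusted p = 0.0301). Over all genes 0.926% were lower and 0.958% higher. The call of Eda2r ended in 16 of 24 alternative settings. Without DMSO hypoxia replicate 1 the list had 4 higher (Eda2r, Fdxr, Dram1 and Gadd45a) and 2 lower (Cdkn1a and Sesn2), against 3.3% and 2.21% over all genes.

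**Figure D2:**
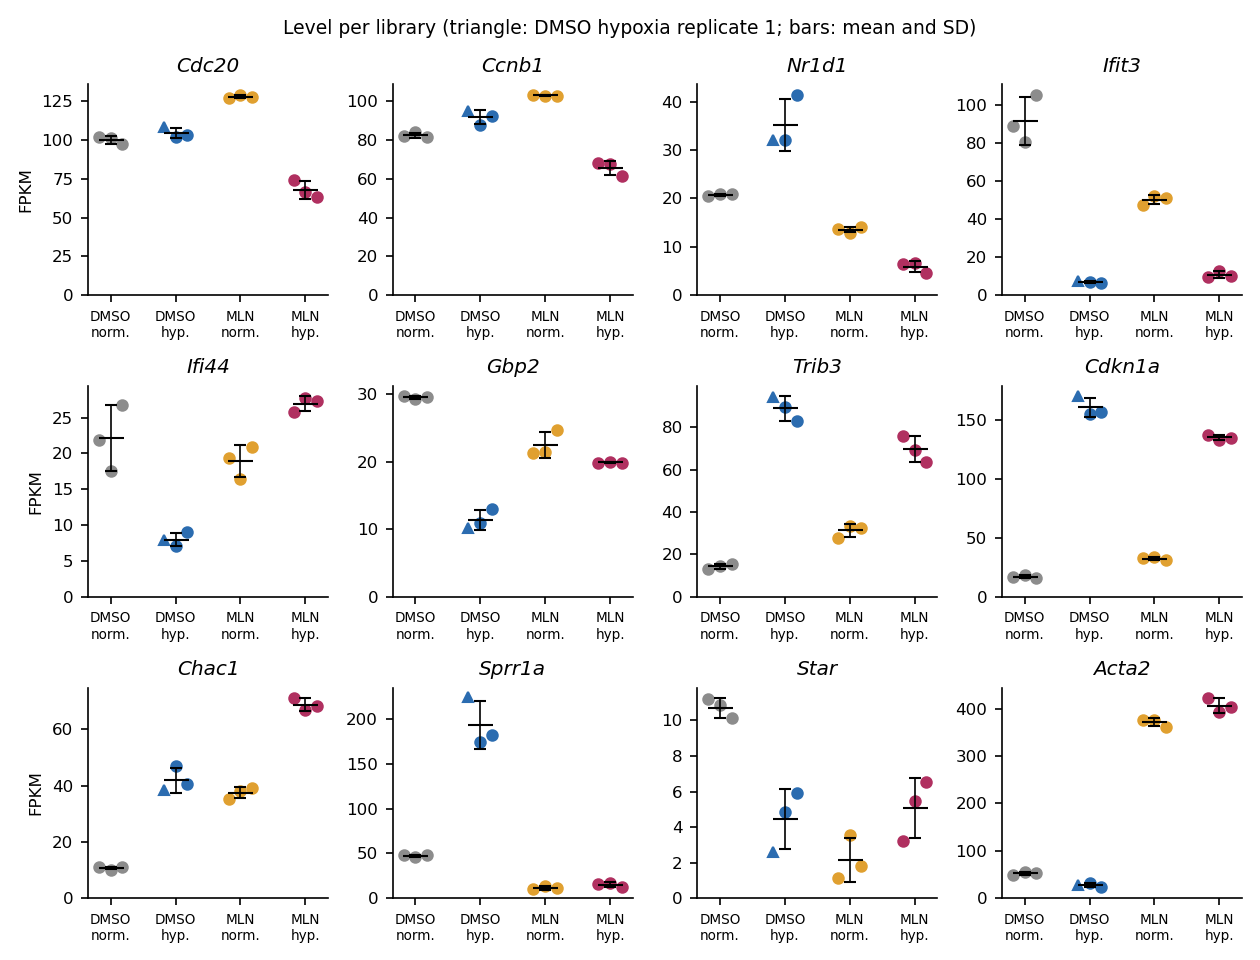
FPKM in each library (points) of 12 genes, by group, with the mean and SD of 3 libraries (black) and DMSO hypoxia replicate 1 as a triangle. Cdc20 and Ccnb1 are lowest and Chac1 highest with both treatments, Ifit3 and Gbp2 are lowest with hypoxia alone, and Sprr1a is high with hypoxia alone only.

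Interferon-stimulated genes formed the largest block above additivity. Of 49 tested members 17 were higher than additive and 0 lower, against 0.958% over all genes, and 44 of the 49 had an interaction above 0, with a median of 0.65. Omitting DMSO hypoxia replicate 1 gave 32 higher, against 3.3% over all genes, 0 lower and a median of 0.64. Omitting other libraries gave 12 to 19 calls. Hypoxia lowered 41 members and raised 2 with DMSO, and lowered 27 and raised 3 with MLN4924. The list mean lay 1.17 to 1.25 log2 units below DMSO normoxia in DMSO hypoxia (-1.17, -1.25 and -1.22), 0.26 to 0.31 below it in MLN4924 normoxia (-0.31, -0.26 and -0.26) and at -0.81, -0.82 and -0.82 with both. The 4 groups of libraries did not overlap. Of 12 markers of macrophages and leukocytes 6 were in the deposited table and 2 were tested, Cd14 and Cd68. The summed level for the list was 10.8 to 13.7 FPKM in DMSO normoxia, 10.2 to 12.2 in DMSO hypoxia, 11.3 to 13.2 in MLN4924 normoxia and 12.7 to 14.5 in MLN4924 hypoxia. Itgam was at 0 or 0.01 FPKM in each library. Both tested markers had an interaction above 0. Cd68, a lysosomal protein of macrophages, had 1.92, 1.19 and 2.02 FPKM in DMSO normoxia, 1.33, 1.64 and 1.49 in DMSO hypoxia, 1.54, 1.90 and 1.82 in MLN4924 normoxia and 3.65, 3.33 and 3.69 in MLN4924 hypoxia, with an interaction of 0.84 ± 0.19 (adjusted p = 0.0568, and 0.0484 without DMSO hypoxia replicate 1). The part of this in the interferon list was not tested.

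Ifit3, which binds viral RNA together with its relatives, had 89.1, 80.3 and 105 FPKM in DMSO normoxia and 7.53, 7.03 and 6.39 in DMSO hypoxia, and 47.5, 51.9 and 51.3 and 9.37, 12.9 and 10.3 in the corresponding MLN4924 groups. Hypoxia lowered it in both arms, and the order of the hypoxia groups was the reverse of that in normoxia, with no overlap in either. The interaction was 1.41 ± 0.17 (adjusted p = 0.00396). Ifit1, a sensor of the 5′ end of foreign RNA, fell from 83.4 ± 6.55 to 11.3 ± 1.303 FPKM with DMSO and from 54.04 ± 1.93 to 17.2 ± 0.849 with MLN4924 (interaction 1.19 ± 0.12, adjusted p = 0.00178). Ifit3b had 1.46 ± 0.24, but it is a close paralog of Ifit3 and the division of reads between them is uncertain.

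The guanylate-binding proteins are GTPases that attack vacuoles holding microbes. Gbp2 had 29.7, 29.3 and 29.5 FPKM in DMSO normoxia, 10.1, 10.9 and 13.02 in DMSO hypoxia, 21.2, 21.4 and 24.7 in MLN4924 normoxia and 19.8, 20 and 19.8 in MLN4924 hypoxia. The DMSO hypoxia libraries were the lowest 3, and the interaction was 1.14 ± 0.12 (adjusted p = 0.00198), with a hypoxia response of -1.31 ± 0.09 with DMSO and -0.17 ± 0.09 with MLN4924 (adjusted p = 0.1905). Of the 8 tested genes with a Gbp symbol, a family assembled after values were seen, 6 were higher than additive and 0 lower, against 0.958% higher over all genes, with a median of 0.96. Of 6 immunity-related GTPases 5 were higher and 0 lower, and of 8 OAS genes, which make the activator of RNase L, 2 were higher and 0 lower. These families too were assembled after values were seen. The Gbp, GTPase and OAS families share members with the interferon list, so their counts are not separate from it. Without DMSO hypoxia replicate 1 the Gbp and immunity-related GTPase families kept 6 and 5 higher genes, and 4 OAS genes were higher, against 3.3% over all genes. Members of these families are close in sequence, so single values such as those of Iigp1 (1.42 ± 0.25), Gbp6 (1.17 ± 0.20) and Tgtp1 (1.10 ± 0.22) are uncertain, and their calls ended in 5, 7 and 16 of 25 alternative settings.

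Ifi44, an interferon-induced gene that restrains cell growth, changed direction. It had 21.9, 17.6 and 26.8 FPKM in DMSO normoxia, 7.91, 7.08 and 9 in DMSO hypoxia, 19.4, 16.5 and 20.96 in MLN4924 normoxia and 25.8, 27.7 and 27.4 in MLN4924 hypoxia. The DMSO hypoxia libraries were the lowest 3, and those with both treatments overlapped DMSO normoxia only through its highest library. It fell with DMSO (log2 -1.35) and rose with MLN4924 (0.49, adjusted p = 0.0253), an interaction of 1.84 ± 0.20 (adjusted p = 0.00198).

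Among the regulators of the pathway, Dhx58, which encodes the RNA sensor LGP2, had 0.83 ± 0.08 (adjusted p = 0.00165) and fell from 36.4 ± 1.54 to 16 ± 0.363 FPKM with DMSO and from 28.1 ± 1.11 to 22.5 ± 0.943 with MLN4924. Irf7, the transcription factor that amplifies interferon production, fell with DMSO from 59.5 ± 7.15 to 34.7 ± 2.35 and was at 56.4 ± 2.39 and 59.1 ± 1.89 with MLN4924 (interaction 0.82 ± 0.12). The ubiquitin-like protein gene Isg15 fell from 532 ± 48.4 to 222 ± 41.3 FPKM with DMSO and from 493 ± 6.15 to 368 ± 20.02 with MLN4924 (interaction 0.85 ± 0.16, lost in 10 of 25 settings), and Usp18, which removes ISG15 from its targets, had 0.92 ± 0.10. Trex1, the exonuclease that clears cytosolic DNA, stood at 24.1, 23.6 and 26.4, 4.94, 4.39 and 3.16, 29.6, 24.5 and 23.5 and 15.9, 8.65 and 12.7 FPKM in the order of groups used above. DMSO hypoxia held its lowest 3 values, and the interaction was 1.296 ± 0.27 (adjusted p = 0.0442), although it shares exons with Atrip on the same strand and lost the call in 15 of 25 alternative settings.

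Promoters of 3 of these genes are shown for the core of the interferon-stimulated response element, which interferon-activated factors bind. The element was searched as GAAA, any 2 bases and GAAA again, on both strands of the same RefSeq windows (GRCm38.p6), and matches are in capitals. The windows are chr19:34583279-34583578 (plus strand) for Ifit3, chr19:34640639-34640938 (plus strand) for Ifit1 and chr3:142620413-142620712 (plus strand) for Gbp2.
Ifit3: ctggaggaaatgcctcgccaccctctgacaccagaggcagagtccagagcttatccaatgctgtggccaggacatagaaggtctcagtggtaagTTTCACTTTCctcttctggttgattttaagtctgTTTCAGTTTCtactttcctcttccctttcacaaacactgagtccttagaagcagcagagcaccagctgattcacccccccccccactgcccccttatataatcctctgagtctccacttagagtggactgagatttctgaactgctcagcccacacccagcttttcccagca
Ifit1: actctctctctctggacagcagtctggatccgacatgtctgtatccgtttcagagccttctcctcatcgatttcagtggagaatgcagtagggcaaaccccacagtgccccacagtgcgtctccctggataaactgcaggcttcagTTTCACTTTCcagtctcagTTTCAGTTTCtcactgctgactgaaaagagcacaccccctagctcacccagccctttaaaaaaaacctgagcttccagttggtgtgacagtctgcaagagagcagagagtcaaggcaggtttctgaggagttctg
Gbp2: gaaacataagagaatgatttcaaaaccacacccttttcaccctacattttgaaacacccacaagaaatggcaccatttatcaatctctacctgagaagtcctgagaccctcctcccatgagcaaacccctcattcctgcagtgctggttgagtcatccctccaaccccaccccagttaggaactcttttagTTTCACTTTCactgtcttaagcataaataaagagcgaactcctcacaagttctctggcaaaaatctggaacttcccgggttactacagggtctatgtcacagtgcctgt
Ifit3 and Ifit1 each held 2 matches and Gbp2 held 1. Of 44 promoters of 38 tested list members, 21 (47.7%) held the letters, against 3.44% of all promoters in the table and 3.13% of those of tested genes. The letters were in 10 of 13 promoters of called members and in 11 of 31 of members not called. The gamma-activated site, searched as TTC, any 3 bases and GAA, was in 11 of the 44 promoters (25%). It was in 6.66% of promoters of tested genes. Among list members it was in 2 of 13 promoters of called members and in 9 of 31 of those not called. The part of either element in the interaction was not tested.

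The list of NF-kB and inflammatory genes showed 1 gene on either side among 25 tested with all libraries, against 0.958% higher and 0.926% lower over all genes. Without DMSO hypoxia replicate 1 there were 4 higher and 1 lower, against 3.3% and 2.21% (median 0.12 in both fits). Cxcl10, a chemokine for T cells that interferon also induces, had 90.8, 92.8 and 102 FPKM in DMSO normoxia, 21.8, 15.8 and 16.7 in DMSO hypoxia, 143, 149 and 155 in MLN4924 normoxia and 57.5, 61.2 and 63.1 in MLN4924 hypoxia. No groups overlapped, and MLN4924 libraries were higher at either oxygen level. Its interaction was 1.06 ± 0.15 (adjusted p = 0.00665), but in FPKM the fall was larger with MLN4924 (difference of -11.1 FPKM), so the sign depends on the scale. Il1rl1, the receptor of interleukin 33, was lower than additive (-0.996 ± 0.12, adjusted p = 0.00358). It rose with MLN4924 in normoxia, from 3.07 ± 0.246 to 14.4 ± 0.0551 FPKM, and reached 5.24 ± 0.335 with both treatments, against 2.28 ± 0.2095 with hypoxia alone.

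**Figure D3:**
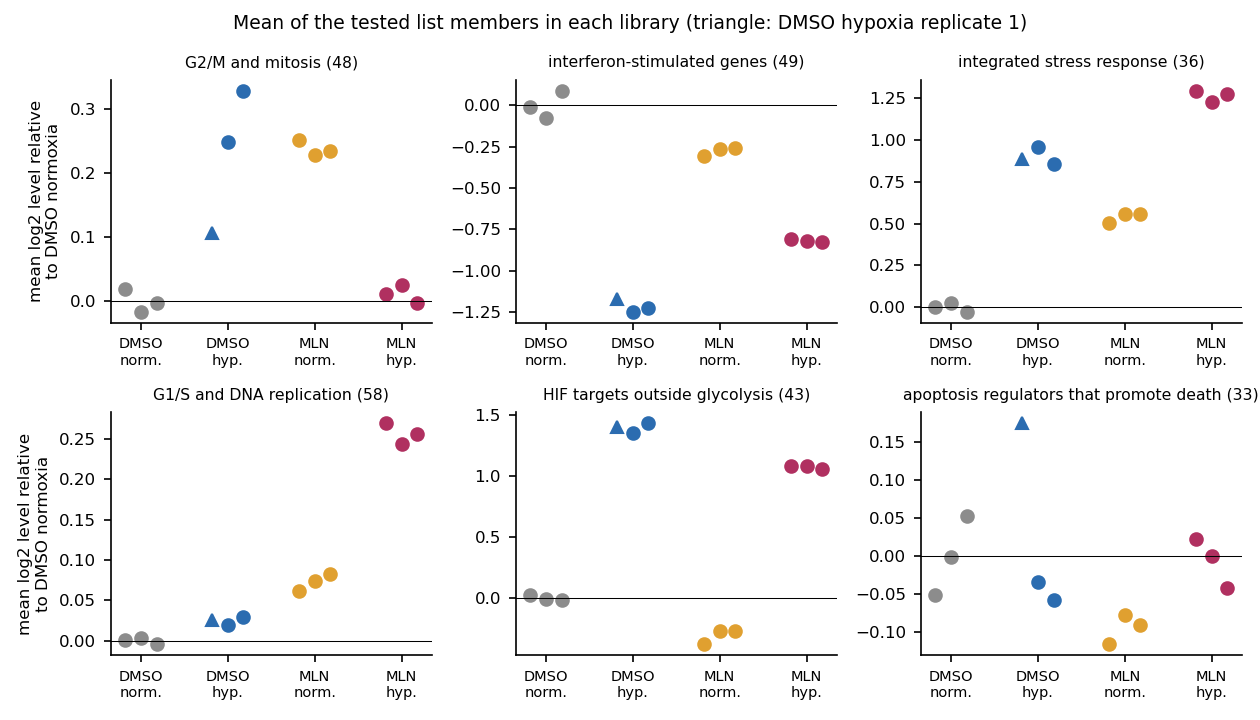
Mean log2 level of the tested members of 6 lists in each library, relative to the mean of DMSO normoxia (tested members in brackets), with DMSO hypoxia replicate 1 as a triangle. G2/M genes return to the untreated level with both treatments, interferon-stimulated genes lie between the DMSO groups, and stress response and replication genes are highest with both; the death list spans -0.12 to 0.17 with DMSO hypoxia replicate 1 highest.

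The integrated stress response is the program that ATF4 drives when translation is restrained by amino acid shortage or by unfolded proteins. Both treatments alone raised genes of its list, and both together gave the highest list mean, but by less than additively for part of them. Hypoxia raised 29 of 36 members in either arm and lowered 2 with DMSO and 1 with MLN4924. Of the 36, 9 were lower than additive and 0 higher, against 0.926% lower over all genes, with a list median of -0.15. Once DMSO hypoxia replicate 1 was omitted, 11 were lower and 2 higher (Wars and Vldlr), against 2.21% and 3.3% over all genes, with a median of -0.18. Leaving out other libraries left 4 to 9 lower. The list mean was 0.86 to 0.96 log2 units above DMSO normoxia in DMSO hypoxia, 0.50 to 0.56 in MLN4924 normoxia and 1.23 to 1.29 with both.

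Trib3, the gene of a pseudokinase that ATF4 induces and that restrains ATF4 in turn, had 13.2, 14.3 and 15.6 FPKM in DMSO normoxia, 94.5, 89.3 and 82.8 in DMSO hypoxia, 27.8, 33.6 and 32.6 in MLN4924 normoxia and 75.8, 69.5 and 63.7 in MLN4924 hypoxia. The groups did not overlap and hypoxia alone was highest. Its interaction of -1.42 ± 0.13 (adjusted p = 0.00146) set 69.5 FPKM observed against 188 expected. Chac1, which degrades glutathione, had 11.1, 10.2 and 10.98, 38.6, 47.03 and 40.5, 35.3, 38.1 and 39.2 and 71.3, 66.8 and 68.1 FPKM in the same order. Here the group with both treatments was the highest and yet lower than additive (-1.01 ± 0.11, adjusted p = 0.00198; expected 139 FPKM). Asns, which makes asparagine, followed the same order of groups, with means of 58.3, 204, 131 and 243 FPKM (interaction -0.90 ± 0.10), and so did Psat1 of serine synthesis (interaction -0.61 ± 0.07) and Mthfd2 of mitochondrial folate metabolism (-0.45 ± 0.07).

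Atf4 itself had 183, 184 and 185 FPKM in DMSO normoxia, 409.9, 349 and 321 in DMSO hypoxia, 271, 288 and 299 in MLN4924 normoxia and 366, 359 and 357 in MLN4924 hypoxia. The 2 hypoxia groups overlapped, and the interaction was -0.62 ± 0.11 (adjusted p = 0.0213, lost in 9 of 25 alternative settings). Ddit3, which encodes CHOP, showed no call (0.09 ± 0.18, adjusted p = 0.831) and rose with hypoxia by 1.75 with DMSO and 1.84 with MLN4924, although it shares sequence with overlapping genes on the opposite strand.

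The promoters of Trib3 and Chac1 are shown for the composite element of C/EBP and ATF factors, through which ATF4 acts. The letters TGATGNAA were searched on both strands, with matches in capitals, in chr2:152344011-152344310 (minus strand) for Trib3 and chr2:119350992-119351291 (plus strand) for Chac1 (RefSeq, GRCm38.p6).
Trib3: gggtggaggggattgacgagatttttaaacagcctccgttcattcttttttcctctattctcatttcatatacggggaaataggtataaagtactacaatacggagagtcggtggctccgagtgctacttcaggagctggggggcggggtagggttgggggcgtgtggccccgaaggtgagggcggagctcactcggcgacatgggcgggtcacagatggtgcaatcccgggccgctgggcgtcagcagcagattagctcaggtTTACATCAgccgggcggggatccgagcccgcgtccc
Chac1: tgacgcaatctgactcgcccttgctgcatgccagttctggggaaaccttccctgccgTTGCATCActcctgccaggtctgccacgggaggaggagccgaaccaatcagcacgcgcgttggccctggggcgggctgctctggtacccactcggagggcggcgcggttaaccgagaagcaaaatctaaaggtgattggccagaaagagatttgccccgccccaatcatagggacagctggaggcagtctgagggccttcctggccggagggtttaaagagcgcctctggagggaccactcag
Of 38 promoters of 31 tested list members 10 (26.3%) held the letters, against 3.97% of all promoters and 2.13% of those of tested genes. The letters were in 3 of 9 promoters of called members and in 7 of 29 of members not called. Their part in the interaction was not tested.

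In the list of targets of the antioxidant factor NRF2, 4 of 35 tested genes were higher than additive and 2 lower, against 0.958% and 0.926% over all genes (median 0.11). Without DMSO hypoxia replicate 1, 13 were higher and 2 lower, against 3.3% and 2.21% (median 0.18), and leaving out libraries of the other groups gave 1 or 2 on either side. The sulfiredoxin gene Srxn1 fell with hypoxia under DMSO, from 40.4, 38.6 and 39.7 to 26.4, 29.1 and 26.4 FPKM, and was at 111, 109.9 and 104 and then 108, 109 and 113 under MLN4924. The MLN4924 groups overlapped each other and lay far above both DMSO groups (interaction 0.55 ± 0.07, adjusted p = 0.00659). Nqo1, a quinone reductase, and Gclc, the first enzyme of glutathione synthesis, had the same form, with 0.59 ± 0.11 and 0.36 ± 0.07, as calls that ended in 11 and 14 of 25 alternative settings. Sqstm1, the autophagy receptor p62, was highest with both treatments at 511 ± 13.4 FPKM, against 412 ± 10.2 in untreated cells (interaction 0.36 ± 0.06, adjusted p = 0.02, lost in 9 settings).

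Slc7a11, the cystine transporter and a target of both NRF2 and ATF4, went the other way. It had 2.05, 2.04 and 2.23 FPKM in DMSO normoxia, 4.31, 6.55 and 5.15 in DMSO hypoxia, 13.01, 13.1 and 13.4 in MLN4924 normoxia and 12.1, 11.2 and 10.6 in MLN4924 hypoxia. Hypoxia raised it with DMSO (log2 1.01) and did not pass with MLN4924 (-0.20, adjusted p = 0.229), an interaction of -1.22 ± 0.16 (adjusted p = 0.00641). Ugdh, which makes the precursor of glucuronides, was the other member below additivity (-0.45 ± 0.09, lost in 13 settings). Nfe2l2, the NRF2 gene, was not called (0.22 ± 0.09, adjusted p = 0.278).

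Of 43 tested targets of HIF outside glycolysis hypoxia raised 34 and lowered 2 with DMSO, and raised 35 and lowered 1 with MLN4924. Of the 43, 2 were higher than additive, against 0.958% over all genes, and 3 lower, against 0.926% (list median -0.03). Omitting DMSO hypoxia replicate 1 gave 7 higher and 7 lower, against 3.3% and 2.21% over all genes in that fit. Of 21 glycolysis genes, 17 rose and 0 fell with DMSO, 19 rose and 0 fell with MLN4924, and 0 were called for the interaction in either direction (3 higher and 0 lower without that library; median 0.04). The list mean outside glycolysis was 1.35 to 1.43 log2 units above DMSO normoxia in DMSO hypoxia, 1.06 to 1.08 in MLN4924 hypoxia and -0.38 to -0.27 in MLN4924 normoxia. A lower level under the inhibitor at both oxygen levels is additive on this scale.

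Adm, the vasodilator peptide adrenomedullin, was an exception. It had 0.99, 0.68 and 0.68 FPKM in DMSO normoxia, 36.1, 27.1 and 31.5 in DMSO hypoxia, 1.51, 1.94 and 1.83 in MLN4924 normoxia and 20.6, 19 and 16.9 in MLN4924 hypoxia. MLN4924 raised its low normoxic level and lowered its hypoxic level, without overlap, and the interaction was -1.34 ± 0.18 (adjusted p = 0.00576). Ccng2, a cyclin linked to cell cycle arrest, had -0.69 ± 0.13 (lost in 13 settings). Bhlhe40, a transcriptional repressor, and P4ha2, a collagen hydroxylase, were higher than additive (0.43 ± 0.09 and 0.52 ± 0.10, lost in 12 settings each), the former with a smaller rise in FPKM under MLN4924 (difference of -43.1 FPKM). Vegfa, the angiogenic growth factor, was short of the threshold with all libraries (-0.45 ± 0.11, adjusted p = 0.0656) and past it without DMSO hypoxia replicate 1 (-0.48, adjusted p = 0.03098). Short of it with all libraries was Hif1a (0.34 ± 0.09, adjusted p = 0.1001), and Vhl was not called (-0.26 ± 0.13, adjusted p = 0.375).

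**Figure D4:**
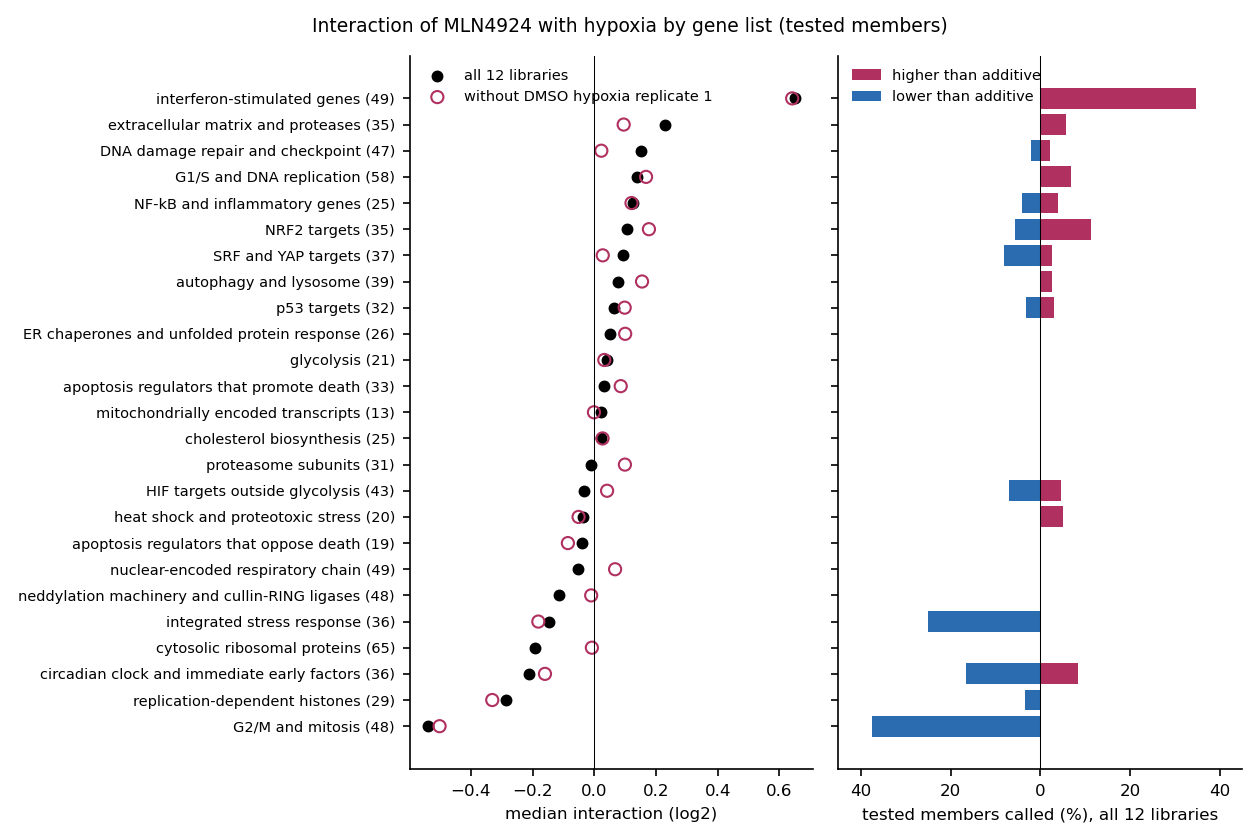
Left, the median interaction of the tested members of 25 lists (numbers in brackets), with all libraries (black) and without DMSO hypoxia replicate 1 (open red); right, the percent of tested members called higher (red) and lower (blue) than additive with all libraries. Interferon-stimulated genes (median 0.65) and G2/M genes (-0.54) lie at the ends, and the ribosomal protein list moves from -0.19 to -0.01 without that library.

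Clock and immediate early genes departed in both directions, with 3 of 36 tested higher than additive and 6 lower, against 0.958% and 0.926% over all genes (median -0.21). Without DMSO hypoxia replicate 1 there were 4 and 9, against 3.3% and 2.21%. Nr1d1, which encodes the clock repressor REV-ERBα, had 20.4, 20.9 and 20.9 FPKM in DMSO normoxia, 32.02, 32.02 and 41.5 in DMSO hypoxia, 13.8, 12.9 and 14.1 in MLN4924 normoxia and 6.42, 6.7 and 4.56 in MLN4924 hypoxia. The groups did not overlap: the gene rose with hypoxia under DMSO and fell with it under MLN4924 (log2 0.72 and -1.09). The interaction of -1.82 ± 0.18 (adjusted p = 0.00178) corresponds to 5.82 FPKM observed against 23.1 expected, and Thra overlaps the gene on the opposite strand. Its paralog Nr1d2 and the clock output factor Dbp were also lower than additive (-0.59 ± 0.13 and -1.19 ± 0.25), with calls that ended in 15 of 25 settings for each, and Dbp reached 0.29, 0.48 and 0.16 FPKM with both treatments against 6.37, 5.66 and 6.94 in untreated cells. Cry2, a repressor of the clock, was higher than additive at low levels (0.69 ± 0.13, lost in 11 of 24 settings).

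Among immediate early genes, Junb, an AP-1 subunit, rose with hypoxia under DMSO from 175, 168 and 168 to 306, 256 and 289 FPKM and was at 138, 137 and 133 and 141, 135 and 138 under MLN4924. The MLN4924 groups overlapped and lay below DMSO normoxia (interaction -0.71 ± 0.09, adjusted p = 0.00401), and Prdx2 overlaps Junb on the opposite strand. Jun had -0.47 ± 0.08 and Egr1, a zinc finger factor, -0.76 ± 0.14. Egr1 fell with hypoxia in both arms and to the lowest level, 5.46 ± 0.105 FPKM, with both treatments, although its call ended in 11 settings. Dusp1, a phosphatase of MAP kinases, was higher than additive (0.63 ± 0.11, lost in 4 settings): it fell with hypoxia under DMSO, from 61.6 ± 5.07 to 36.5 ± 1.52 FPKM, and was at 61.3 ± 0.914 and 57.05 ± 5.07 under MLN4924.

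In the list of SRF and YAP targets 1 of 37 was higher than additive and 3 lower, against 0.958% and 0.926% over all genes (median 0.09). Without DMSO hypoxia replicate 1 there were 7 higher and 6 lower, against 3.3% and 2.21%. The one called higher with all libraries was Acta2, smooth muscle actin, with 50.2, 54.8 and 52.5 FPKM in DMSO normoxia, 27.4, 31.9 and 24.4 in DMSO hypoxia, 377, 375 and 362 in MLN4924 normoxia and 423, 392 and 404 in MLN4924 hypoxia. Hypoxia lowered it with DMSO, in groups that did not overlap, and with MLN4924 the 3 hypoxia values lay above the 3 in normoxia without passing the test (log2 0.13, adjusted p = 0.284). The interaction was 1.02 ± 0.12 (adjusted p = 0.00257).

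Sprr1a, a precursor of the cornified envelope of squamous epithelia, showed one of the clearest cases of a response called with DMSO alone. It had 47.9, 46.2 and 47.95 FPKM in DMSO normoxia, 224, 174 and 182 in DMSO hypoxia, 9.99, 13.98 and 11.1 in MLN4924 normoxia and 16.3, 17.1 and 12.4 in MLN4924 hypoxia. Every MLN4924 library lay below every DMSO library, and the interaction was -1.64 ± 0.20 (adjusted p = 0.00396). Lce1g, of the same gene complex of the epidermis, had 3.55, 5.14 and 2.11, 7.84, 7.84 and 6.2, 18.1, 18.2 and 14.4 and 9.57, 7.93 and 9.1 FPKM in that order: it rose with each treatment alone and with both stood near the level of hypoxia alone (interaction -1.75 ± 0.30, adjusted p = 0.0165, lost in 5 settings). Of 8 tested Sprr and Lce genes, assembled after values were seen, 4 were lower than additive and 0 higher, against 0.926% lower over all genes. Without DMSO hypoxia replicate 1 there were 3 and 0, against 2.21% lower. Cdsn, which encodes the skin adhesion protein corneodesmosin, was higher than additive instead, with means of 2.76, 8.14, 2.93 and 20.5 FPKM (interaction 1.19 ± 0.18).

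H19, an imprinted long noncoding RNA, responded to hypoxia more strongly with the inhibitor on the log2 scale. It had 8.89, 7.71 and 9.14 FPKM in DMSO normoxia, 46.9, 42.04 and 50.1 in DMSO hypoxia, 2.46, 2.1 and 1.68 in MLN4924 normoxia and 29.7, 33.5 and 30.97 in MLN4924 hypoxia. MLN4924 lowered it at both oxygen levels without overlap, and hypoxia raised it 4.94-fold with DMSO and 10.6-fold with MLN4924 (interaction 1.10 ± 0.15, adjusted p = 0.006796). In FPKM the rise with MLN4924 was the smaller one (difference of -8.45 FPKM). Star, which carries cholesterol into mitochondria for steroid synthesis, fell with hypoxia under DMSO and rose under MLN4924, from 11.2, 10.8 and 10.1 to 2.61, 4.86 and 5.9 and from 1.13, 3.54 and 1.83 to 3.25, 5.46 and 6.54 FPKM. The MLN4924 groups overlapped, replicate spread was wide, and the interaction of 2.13 ± 0.44 (adjusted p = 0.0408) was lost in 10 of 25 settings. Of 9 Leydig cell markers 5 were in the deposited table, and Star was 1 of 2 tested. The other, Nr5a1, had the highest mean of the list, 22.96 FPKM, with 19.19 to 25.61 over the libraries. The steroid enzyme genes Cyp17a1 and Hsd3b1 were at 0 in every library of DMSO normoxia, DMSO hypoxia and MLN4924 hypoxia.

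Further genes at the top of the ranking belonged to no list. Rgcc, a regulator of the cell cycle, fell with MLN4924 in normoxia, and in hypoxia the difference did not pass (adjusted p = 0.199), with means of 8.25, 6.36, 1.47 and 4.83 FPKM (interaction 1.58 ± 0.25). Nelfe, a subunit of the complex that pauses RNA polymerase II, fell with hypoxia under DMSO, from 34.8 ± 1.43 to 22.4 ± 3.92, and rose under MLN4924, from 23.1 ± 3.75 to 37.97 ± 3.92 (interaction 1.33 ± 0.19). Xdh, which makes uric acid, did so too in direction (1.52 ± 0.29, lost in 10 of 25 settings), but DMSO hypoxia replicate 1 was the lowest library at 9.41 FPKM and the rise under MLN4924 did not pass (adjusted p = 0.0982). The ubiquitin ligase gene Mib2 had 1.19 ± 0.22 (lost in 9 settings) and was highest with both treatments at 9.16 ± 0.667 FPKM, against 3.46 ± 0.617 in untreated cells.

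On the lower side, Gas2l3, a linker of actin and microtubules, had -1.26 ± 0.17, the exchange factor gene Arhgef39 -1.23 ± 0.23 (lost in 10 settings), and the smoothelin-like gene Smtnl2 -1.37 ± 0.19. Gm37752, which has no assigned function, rose with hypoxia under DMSO from 3.99 ± 0.335 to 16.8 ± 3.96 FPKM and was at 2.197 ± 0.416 and 1.67 ± 0.406 under MLN4924 (interaction -2.08 ± 0.24, adjusted p = 0.00266). AY036118 had -1.96 ± 0.41, but shares exons with another gene on its strand and lost its call in 14 settings. The largest positive value, 3.34 ± 0.73 for Gm12976, rested on low and scattered levels, with 0 FPKM in 1 DMSO hypoxia and 2 MLN4924 normoxia libraries, and was lost in 14 settings.

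**Figure D5:**
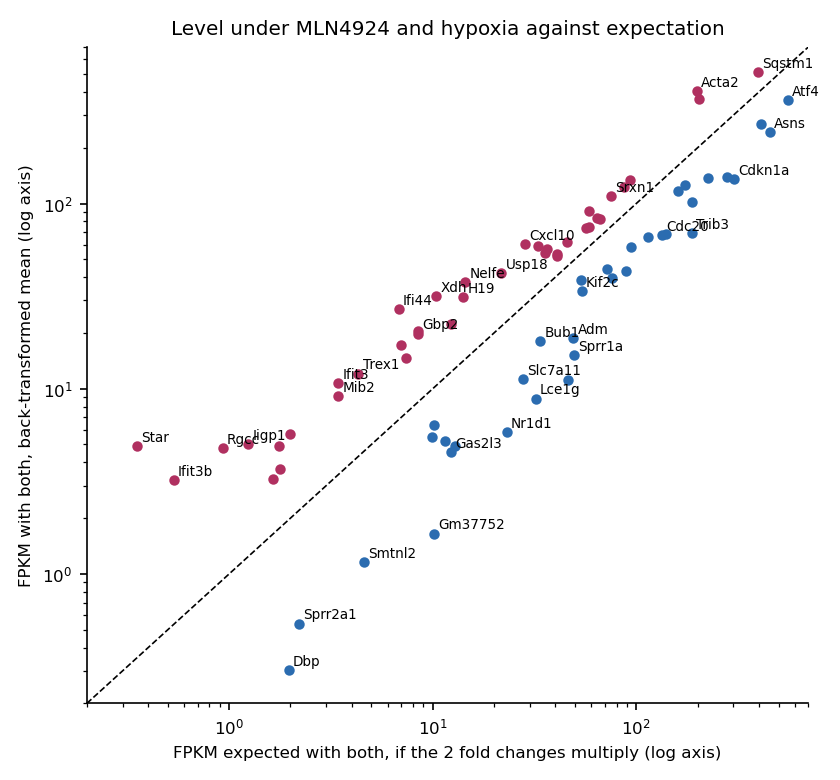
Level with both treatments expected if the 2 separate fold changes multiply on the FPKM + 1 scale (x axis) against the level observed (y axis), both in FPKM on log axes, for 74 called genes named in the text. Red points lie above the line of equality, as Ifi44 at 26.9 against 6.80 FPKM, and blue points below it, as Cdkn1a at 136 against 302 FPKM; all were called, so the distance from the line is a description.

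Regulators of cell death, to which the series title points, are described by their values. With all libraries their counts were near the 1.88% called over all genes, which is no result about them. Of 33 tested regulators that promote death 0 were higher and 0 lower than additive at the adjusted threshold (median 0.03). Of 19 that oppose it there were 0 and 0 (median -0.04). Without DMSO hypoxia replicate 1 there were 1 higher and 0 lower among those that promote death. Among those that oppose it there were 0 higher and 2 lower, Birc5 and Mcl1. Over all genes in that fit 3.3% were higher and 2.21% lower. Bbc3, the gene of PUMA, a BH3-only protein that frees BAX and BAK, had 1.51, 1.44 and 2.24 FPKM in DMSO normoxia, 5.44, 4.7 and 4.04 in DMSO hypoxia, 2.33, 1.59 and 1.98 in MLN4924 normoxia and 4.45, 5.5 and 6.12 in MLN4924 hypoxia. It rose with hypoxia in both arms (1.07 and 1.10), and its interaction was 0.02 ± 0.22 (adjusted p = 0.968). Pmaip1, which encodes the BH3-only protein NOXA, had 0.003 ± 0.15 and was highest with both treatments at 4.59 ± 0.168 FPKM, and Bcl2l11, which encodes BIM, had 0.07 ± 0.17. Mcl1, a guardian of the BCL2 family, fell with hypoxia under MLN4924, from 62.2, 61.5 and 63.3 to 40.8, 41.7 and 41.7 FPKM, and was at 58.3, 57.8 and 57.6 and 62.3, 47.5 and 48.8 with DMSO. Its 3 lowest libraries were those with both treatments, and the interaction was -0.44 ± 0.12 (adjusted p = 0.112; -0.32 and adjusted p = 0.00285 without DMSO hypoxia replicate 1). Trp53 fell with hypoxia in both arms (-0.50 and -0.49), with an interaction of 0.01 ± 0.10, and transcripts of the introduced p53 mutant cannot be told apart from the cell's own.

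Of 48 tested genes of neddylation and the cullin-RING ligases, the machinery that the inhibitor acts on, 0 were higher and 0 lower, which is near the 1.88% called over all genes and no result about the list (median -0.11, and -0.01 without DMSO hypoxia replicate 1, where 1 was lower). Nedd8 had -0.25 ± 0.16 (adjusted p = 0.5304). The subunits of its activating enzyme, Nae1 and Uba3, had 0.04 ± 0.16 and -0.21 ± 0.13. With SEs of 0.13 to 0.16 these values do not show that the responses were alike.

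Ribosomal protein genes had 0 calls of 65 and a median of -0.19, which was -0.01 without DMSO hypoxia replicate 1. Proteasome subunits had 0 of 31, chaperones of the endoplasmic reticulum 0 of 26, cholesterol synthesis 0 of 25, the nuclear-encoded respiratory chain 0 of 49 and mitochondrially encoded transcripts 0 of 13. These counts of 0 are near the 1.88% called over all genes. Without that library 3 proteasome and 3 chaperone genes were higher and 0 lower, against 3.3% higher over all genes, 1 cholesterol gene was called on either side and 1 respiratory chain gene was higher. With all libraries, where 0.958% of all genes were higher and 0.926% lower, extracellular matrix genes had 2 higher of 35 (Mmp2, a gelatinase, and Bgn, the proteoglycan biglycan). Heat shock genes had 1 higher of 20, genes of autophagy and the lysosome 1 higher of 39, DNA repair genes 1 higher and 1 lower of 47, and histones 1 lower of 29. Without DMSO hypoxia replicate 1 there were 8 higher and 2 lower extracellular matrix genes, 3 and 2 heat shock genes, 6 and 0 autophagy and lysosome genes, 2 and 1 repair genes and 0 and 2 histones. The shares over all genes in that fit were 3.3% higher and 2.21% lower. With all libraries 1798 of the tested genes had an unadjusted p under 0.05.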

How the data were processed

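RNA of the 12 libraries was sequenced on the NovaSeq platform with paired reads, per the labels. The authors deposited FPKM per gene symbol, with 1 column per library, and the submitters' processing notes name fastp, STAR, RSEM 1.3.3 and genome build mm39 without their roles. Annotation and strandedness were not given in the sources used here. FPKM holds no counts, so sequencing depth is unknown and no counting interval can be given. Column totals differ, so the values are not per a fixed total.

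For genes with at least 1 FPKM in 3 libraries, log2(FPKM + 1) values entered a limma model (version 3.58.1, R 4.3.3) that gave each of the 4 groups its own mean and all of them a common spread, with an intensity trend. Tests were two-sided, with Benjamini-Hochberg adjustment over 12311 genes and a threshold of 0.05. An exact permutation of 3 against 3 libraries cannot go below p = 0.1. The fit was tested on simulated data with independent noise, whose spread was taken without DMSO hypoxia replicate 1. The simulated data thus held no library that stood apart, and say nothing of the fit under one. The members and the 31 gene lists, 1049 memberships of which 46 symbols were not in the file, were chosen with earlier results of these data known.

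Genes named by rule were called with and without DMSO hypoxia replicate 1, with the same sign, and their highest group averaged 5 FPKM or more. From these came the 12 largest in either direction, the 3 largest of each kind of response, and the 3 with the lowest adjusted p in each list with 3 such members, plus 15 preset targets and regulators. Results of some genes are not reported here. The 31 others described, and the further list members and markers named, were chosen after their values were seen, as were 8 gene families. Transcript lengths came from GENCODE M21 by symbol (97.6% of tested genes), and promoters from RefSeq for GRCm38.p6, so no other coordinates are given. Nothing shows that replicate numbers pair the libraries.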

Additional observations from a re-analysis of the deposited data

Results flagged for a closer look

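The hypoxia response differed between DMSO and MLN4924 for 232 genes in the test of the difference itself, which is the interaction described above. Groups of 3 libraries were too small for a test of single outlying samples.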

How the results depend on the processing

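With all libraries 118 genes were higher and 114 lower than additive. Leaving out 1 library in turn gave 42 to 406 higher and 48 to 272 lower, the top of both ranges without DMSO hypoxia replicate 1. Weighting libraries by their spread gave 478 and 365, and a correction for transcript length gave 204 and 207. A replicate block gave 56 higher and 76 lower, and the length correction with the block 123 and 125. Same-numbered libraries of different groups had correlations of -0.0697 to 0.0993 in their deviations, over 18 pairs, so the numbers were not taken as pairs. Other pseudocounts, filters, scalings and priors kept both counts within 1.5 times. The cause of these shifts was not tested, except that a fit with fewer libraries has fewer degrees of freedom.

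Of 89 named genes 75 were called, 34 of them kept the call in every alternative on the log2 scale, and none of the 75 changed sign there. In FPKM differences 3 of the 75 changed sign: Bhlhe40 (-43.1), Cxcl10 (-11.1) and H19 (-8.45). Over all called genes 4 of 118 higher and 1 of 114 lower did. Uncalled genes near 0 changed sign in some settings, with leave-one-out ranges of -0.105 to 0.131 for Bbc3, -0.026 to 0.157 for Bcl2l11, -0.0444 to 0.213 for Ddit3, -0.0596 to 0.184 for Nae1, -0.0635 to 0.0817 for Pmaip1 and -0.0491 to 0.0615 for Trp53. Bbc3 had -0.0108 with a pseudocount of 0.1, -0.0681 with quantile and -0.0319 with cyclic loess normalization. Pmaip1 had -0.0446, -0.0884 and -0.0531 there and -0.039 with array weights. Bcl2l11 had -0.0423 with quantile normalization, -0.0131 with array weights and -0.0124 with the length correction, block or not, and Trp53 had -0.0212 with array weights and -0.0028 with the length correction, block or not.

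Depth is unknown from FPKM, and 3 libraries per group with 1 that stands apart limit precision. A p over the threshold does not show equal responses.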

Other observations

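Genes of fatty acid elongation and desaturation, a family assembled from symbols after values were seen, had 3 of 10 tested members higher than additive and 0 lower, against 0.958% higher over all genes, with a median of 0.32. Without DMSO hypoxia replicate 1 there were 4 and 0, against 3.3% higher. Fads1 and Fads2, the delta-5 and delta-6 desaturases of polyunsaturated fatty acids, had interactions of 0.63 ± 0.13 and 0.39 ± 0.08, and Elovl5, an elongase of the same pathway, had 0.34 ± 0.07. Fads2 had 85.1, 83.7 and 86.7 FPKM in DMSO normoxia, 60.1, 70.9 and 68.2 in DMSO hypoxia, 81.99, 81.6 and 82.5 in MLN4924 normoxia and 81.5, 83.8 and 85.9 in MLN4924 hypoxia, so its 3 lowest values were those with hypoxia alone. These calls ended in 15, 19 and 13 of 25 alternative settings. Dgat2, which makes triglycerides, was higher than additive in every one of the 25 (0.90 ± 0.14), with 14.7 ± 0.285 FPKM with both treatments against 9.65 ± 1.04 with hypoxia alone.

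Across 5 bins of genes by transcript length, the median interaction ran from -0.07 in the shortest to 0.14 in the longest with all libraries, and from 0.04 to -0.00 without DMSO hypoxia replicate 1. The median length was 2893.5 bases for genes called higher, 2837.5 for those called lower and 3204 for all tested. The part of length in the interaction of single genes was not tested beyond the length correction given above.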
